A study of Mus musculus with 4 samples.

Results

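The 7 inhibitor genes of cyclin-dependent kinases (CDKs), Cdkn1a, Cdkn1b, Cdkn1c, Cdkn2a, Cdkn2b, Cdkn2c and Cdkn2d, were followed in tumour epithelial cells of mouse skin squamous cell carcinoma. A probe set was taken as a member when the platform annotation gave it to 1 of these genes alone, which held for 9 of the 45037 probe sets that were not array controls. Cdkn1a and Cdkn1b were each represented by 2 probe sets and the other genes by 1. The tumours were induced chemically in mice that carried a green fluorescent protein reporter for Sox2, a transcription factor of stem and progenitor cells. Cells of malignant tumours, positive for the epithelial surface protein Epcam and negative for CD45, CD31 and CD140a, were sorted into Sox2-GFP-positive (n = 2 arrays) and Sox2-GFP-negative (n = 2 arrays) fractions, the latter serving as control. Per the series text, the replicates come from 2 tumours of 2 different mice, and the reporter, the sort and the tumour stage are shared by both fractions. The strain, the age of the mice and the structure of the reporter allele were not stated in the labels, and the sort reads the reporter and not Sox2 protein.

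CDK inhibitors are the brakes of the cell cycle. The Cip/Kip proteins p21 (Cdkn1a), p27 (Cdkn1b) and p57 (Cdkn1c) bind complexes of cyclins with CDKs, mainly those with Cdk2, and p21 is also a classical target of the tumour suppressor p53. The INK4 proteins p16 (Cdkn2a), p15 (Cdkn2b), p18 (Cdkn2c) and p19 (Cdkn2d) bind Cdk4 and Cdk6 alone, keep them from D-type cyclins and so hold the retinoblastoma protein in its growth-suppressing form. Cdkn2a has a second product, Arf, read from its own first exon in another frame, which restrains Mdm2 and thereby stabilises p53. In skin and many other tissues p16 and Arf accumulate with oncogenic stress and senescence, and the locus that they share with p15 is often lost or silenced in cancers.

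The start windows of the genes at that locus, and of the Cdkn1a start with a p53 site, are shown because the members that separated most sit at the locus and because p21 is the best-known target downstream of Arf. Sequences are from RefSeq (GRCm38.p6), whose table held 9 windows for 6 of the 7 genes, each with 250 bases before and 50 after an annotated start. The Cdkn2a windows lie at chr4:89294570-89294869 and chr4:89282143-89282442, and the Cdkn2b window at chr4:89310983-89311282, all on the minus strand. The Cdkn1a window lies at chr17:29090729-29091028 on the plus strand. Capitals mark 3 motifs searched on both strands, E2F (TTTNNCGC), Sp1 (GGGCGG) and a p53 response element (a pair of adjoining consensus decamers with at most 1 mismatch), and no match overlapped another in these windows. Of all 32851 windows in the table, 5.17% held the E2F letters, 35.7% the Sp1 letters and 0.0883% the p53 element.
Cdkn2a upstream start (Arf): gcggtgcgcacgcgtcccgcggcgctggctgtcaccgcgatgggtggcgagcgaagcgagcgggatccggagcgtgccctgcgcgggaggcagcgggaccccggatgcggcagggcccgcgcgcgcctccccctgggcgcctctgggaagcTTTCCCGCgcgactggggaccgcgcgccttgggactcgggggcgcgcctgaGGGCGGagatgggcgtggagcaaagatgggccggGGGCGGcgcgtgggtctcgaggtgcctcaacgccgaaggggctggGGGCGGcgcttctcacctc
Cdkn2a downstream start (Ink4a): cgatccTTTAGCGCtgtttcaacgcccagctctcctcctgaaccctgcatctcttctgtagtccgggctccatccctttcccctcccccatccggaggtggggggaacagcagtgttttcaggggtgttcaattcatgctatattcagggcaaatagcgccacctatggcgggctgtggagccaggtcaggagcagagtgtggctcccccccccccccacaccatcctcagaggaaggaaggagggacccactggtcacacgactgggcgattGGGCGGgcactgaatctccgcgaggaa
Cdkn2b start: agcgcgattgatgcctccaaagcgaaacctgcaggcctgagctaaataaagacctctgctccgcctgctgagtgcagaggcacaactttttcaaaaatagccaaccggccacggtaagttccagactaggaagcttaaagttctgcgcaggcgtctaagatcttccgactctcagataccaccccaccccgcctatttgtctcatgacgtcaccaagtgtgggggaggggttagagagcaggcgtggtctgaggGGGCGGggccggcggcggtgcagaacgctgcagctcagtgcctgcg
Cdkn1a upstream start: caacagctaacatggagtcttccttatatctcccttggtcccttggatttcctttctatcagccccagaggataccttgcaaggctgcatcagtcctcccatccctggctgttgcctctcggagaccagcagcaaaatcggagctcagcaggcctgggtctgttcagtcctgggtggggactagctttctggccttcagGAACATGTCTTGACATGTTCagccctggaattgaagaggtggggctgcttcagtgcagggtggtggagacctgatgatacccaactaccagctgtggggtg
The upstream Cdkn2a window, which starts the Arf transcript, held 1 E2F match 99 bases before the start and 3 Sp1 matches. The downstream window, which starts the p16 transcript, held 1 E2F match 244 bases before the start and 1 Sp1 match. The Cdkn2b window held 1 Sp1 match and no E2F match. The p53 element in the upstream Cdkn1a window lay 51 bases before the start. The other Cdkn1a window, at chr17:29093519-29093818 and not printed, held 2 Sp1 matches and no p53 element. These matches describe letters and are not evidence that a factor was bound.

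Values are the authors' log2 intensities, so a difference of 1 is a ratio of 2, and no array carried detection calls. Array medians ran from 5.49 to 5.6 and lower quartiles from 4.19 to 4.25. Keratinocyte genes were bright in both fractions: Krt5 read 13.32 and 13.26 in the negative and 13.24 and 13.26 in the positive arrays, and Krt14 read 12.99 to 13.07 in all 4. Epcam was at 11.24 and 11.80 in the negative and 10.75 and 11.79 in the positive arrays. Of the 8 basal keratinocyte markers 6 were separated above and 1 below, beside 35.5% and 14% of all genes, with a median log2 difference of 0.29. The widest was Itgb4, an integrin of the basement membrane contact, at 10.95 and 10.88 against 11.90 and 12.37. Marker genes of other cell types also gave signal, at levels that differed between the arrays. The 12 fibroblast and pericyte markers had a mean level of 10.93 and 9.17 in the negative and 8.49 and 6.54 in the positive arrays, with 11 separated below, beside 14% of all genes. Of the 12, the collagen gene Col1a1 read 13.68 and 12.76 in the negative arrays, near the keratins, and 12.57 and 9.60 in the positive arrays. The 10 endothelial markers averaged 7.35 and 5.87 against 6.23 and 5.61, the 12 immune markers 6.76 and 5.66 against 5.85 and 5.25, and the 6 melanocyte markers 6.34 and 5.91 against 5.02 and 4.52. Separated above and below were 1 and 1 endothelial, 1 and 2 immune, and 0 and 5 melanocyte markers, beside 35.5% and 14% of all genes. The endothelial marker above was Cd34, at 7.36 and 6.43 against 8.74 and 8.96. Limma called 0 of the markers of other cell types. An alternative chosen after seeing the data took the replicate number as a block, with 1 probe set per gene. It called 6 fibroblast, 1 endothelial, 0 immune and 2 melanocyte markers, all lower. Of all genes it called 0.868% lower and 0.0715% higher. No marker was at 0, because these values have no zero, and the gated Pdgfra, Pecam1 and Ptprc read 7.83, 8.44 and 4.97 in negative replicate 1 and 4.85 to 5.96, 5.57 to 6.41 and 4.18 to 4.98 in the other arrays. Because each array reads a population, fewer cells of a type and less RNA per cell cannot be told apart, and the part of other cell types in the values below was not tested.

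The main comparison asked which CDK inhibitors differ in RNA between the sorted fractions. Cdkn2a, the p16 and Arf gene, stood furthest apart and lay higher in positive cells. Cdkn2b, its neighbour, and 1 of the 2 Cdkn1b probe sets also lay higher in both positive arrays. Cdkn1a, Cdkn1c, Cdkn2c and Cdkn2d had overlapping groups. None of the 9 member probe sets passed limma at an adjusted p of 0.05, as 0% of the 45037 probe sets did (lowest adjusted p = 0.226). At an unadjusted p under 0.05 stood 3 member probe sets, all higher, beside 3349 higher and 2976 lower probe sets on the whole array. With the replicate number as a block 0% of the probe sets passed again, with a lowest adjusted p of 0.0974 in limma. Both positive arrays lay above both negative arrays in 3 of the 9 member probe sets, beside 29.7% of all probe sets, and below in 1, beside 18.4%. The median log2 difference was 0.22 over the 9 member probe sets and 0.07 over all probe sets.

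Directions depend on the scale of the deposited values. Scaling the arrays to the poly-A spike-in transcripts, bacterial RNAs added to each sample, added 0.79 to each log2 difference and brought the all-array median to 0.86. After it 6 of the 9 member probe sets were called higher in limma, beside 59.3% of all probe sets, and the members with a negative difference turned positive. The directions below are those of the deposited scale, and differences less than 0.79 below 0 change sign on the spike-in scale. Quantile and equal-median scaling turned the sign of Cdkn2d alone, whose difference is near 0.

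Cdkn2a (probe set 1450140_a_at) read 4.75 and 4.58 in the negative arrays and 5.99 and 6.26 in the positive arrays. Both positive arrays were above both negative arrays, with 1.25 between the nearest. Positive minus negative came to 1.46 ± 0.20 (log2, SE, n = 2 per group; 95% interval 0.94 to 1.99), or 2.76-fold, with an adjusted p of 0.226 in limma. Within replicate numbers it was 1.25 and 1.68. Only 0.435% of all probe sets had a higher difference, and a gap of at least 1 log2 unit in the same direction, as Cdkn2a had, was found in 0.462%. In the negative arrays the probe set lay at the 35.8th and 32.5th percentile of all probe sets, between the lower quartile and the median, and in the positive arrays at percentiles 57.7 and 59.3. The negative reading is dim, and without detection calls it bounds the transcript level from above. If that reading is background, the estimate of 2.76-fold understates the ratio, and it keeps the sampling error given by the interval above. The positive reading may hold background too. The annotation attaches the probe set to the gene and not to one product, so p16 and Arf RNA cannot be told apart here.

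Cdkn2b (1449152_at), which encodes p15, read 8.77 and 8.74 in the negative arrays and 9.39 and 9.66 in the positive arrays. The groups did not overlap, and the negative arrays were almost equal. Positive minus negative came to 0.77 ± 0.19 (log2, SE, n = 2 per group; 95% interval 0.26 to 1.27), or 1.70-fold, with an adjusted p of 0.267 in limma. Within replicate numbers it was 0.62 and 0.91, and 4.74% of all probe sets had a higher difference.

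The other INK4 genes did not share this pattern. Cdkn2c (1416868_at), which encodes p18, read 7.40 and 7.13 in negative against 7.45 and 7.17 in positive arrays, so that replicate 1 was the higher of the pair in both fractions. Its log2 difference was 0.05 ± 0.21 (SE, n = 2 per group), with a 95% interval of -0.52 to 0.62. Cdkn2d (1416253_at), the gene of the INK4 protein p19, read 6.48 and 6.87 against 6.30 and 6.98, with replicate 2 higher in both fractions. Its log2 difference was -0.03 ± 0.31 (SE, n = 2 per group), with a 95% interval of -0.85 to 0.79. Both intervals hold 0, and they are wide enough that equality of the fractions is not shown for either gene.

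Among the Cip/Kip genes, Cdkn1a was bright and uneven. Its brighter probe set (1421679_a_at) read 11.10 and 11.61 in negative and 11.68 and 11.48 in positive arrays, and the other (1424638_at) read 10.12 and 10.51 against 10.24 and 10.09. The groups overlapped in both, and negative replicate 1 was the low negative array of each. The log2 differences were 0.22 ± 0.25 and -0.16 ± 0.22 (SE, n = 2 per group), with 95% intervals of -0.44 to 0.88 and -0.74 to 0.42. Within replicate numbers both probe sets were higher in positive cells of replicate 1 (0.58 and 0.12) and lower in those of replicate 2 (-0.13 and -0.43).

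The probe sets of Cdkn1b, the p27 gene, disagreed. The first (1419497_at) read 8.76 and 8.58 in negative and 9.25 and 9.18 in positive arrays, a log2 difference of 0.54 ± 0.18 (SE, n = 2 per group; 95% interval 0.07 to 1.02) and an adjusted p of 0.324 in limma. The second (1434045_at) read 8.95 and 8.87 against 8.72 and 8.85, a log2 difference of -0.13 ± 0.18 with a 95% interval of -0.59 to 0.34. The positive arrays of the first were separated above by 0.42 and those of the second below by 0.02. A statement on Cdkn1b as a gene therefore depends on the probe set chosen, and the files used here do not say which part of the transcript each one reads.

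Cdkn1c (1417649_at), the p57 gene, read 6.32 and 5.86 in negative and 7.01 and 6.31 in positive arrays. Positive replicate 2 was level with negative replicate 1, so the groups met without a gap. Positive minus negative came to 0.58 ± 0.32 (log2, SE, n = 2 per group; 95% interval -0.28 to 1.44), or 1.49-fold, with an adjusted p of 0.488 in limma. It was 0.70 and 0.46 within replicate numbers, both higher in positive cells. Leaving out 1 array moved it to 0.23 (without positive replicate 1), 0.93 (without positive replicate 2), 0.81 (without negative replicate 1) or 0.35 (without negative replicate 2).

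**Figure D1:**
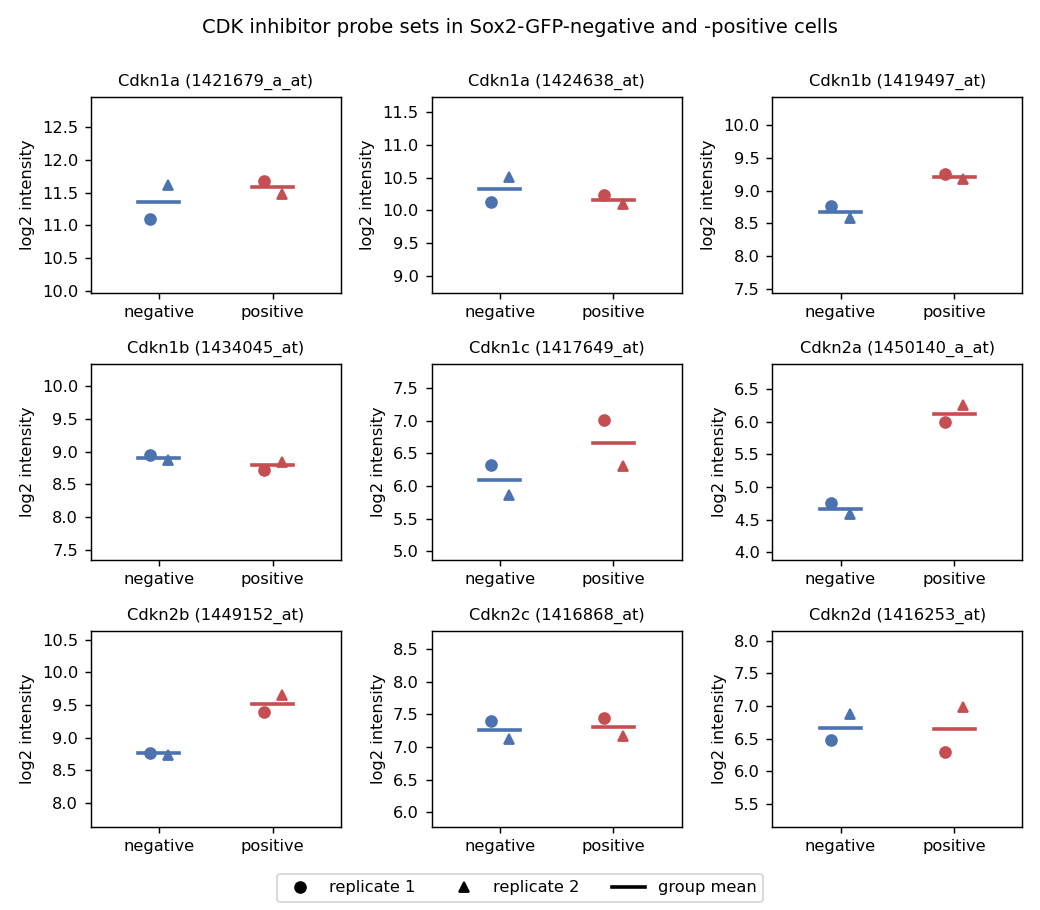
Deposited log2 intensity (vertical axis, each panel spanning the same number of log2 units) of each CDK inhibitor probe set in Sox2-GFP-negative (blue) and Sox2-GFP-positive (red) arrays; circles are replicate 1, triangles replicate 2 and bars the mean of 2 arrays. The groups stand apart for Cdkn2a (4.58 and 4.75 against 5.99 and 6.26), Cdkn2b and 1 Cdkn1b probe set, and overlap or nearly touch in the others.

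**Figure D2:**
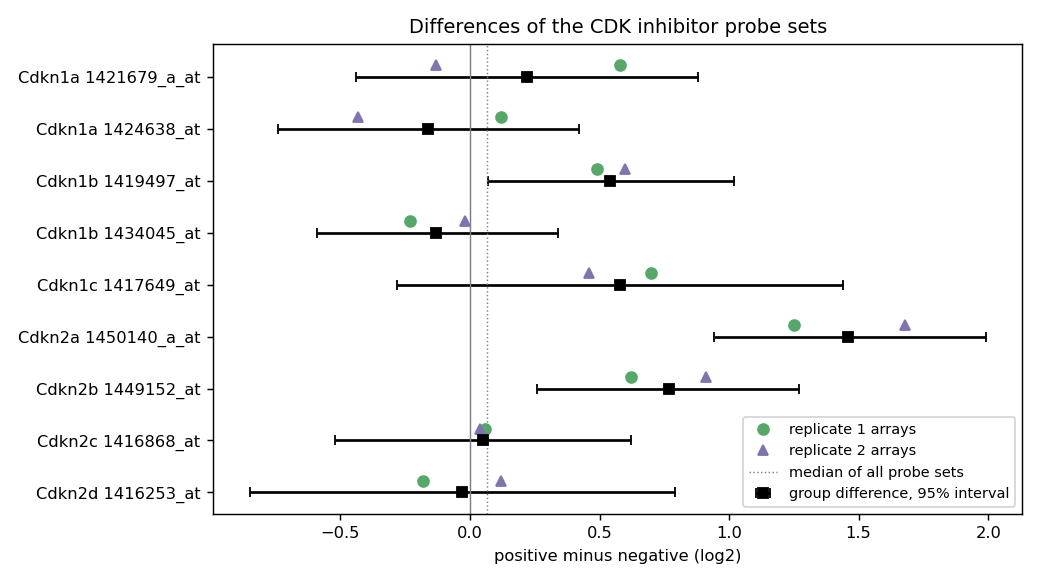
Log2 difference, positive minus negative, of each CDK inhibitor probe set: squares with bars are the group difference and its 95% interval from limma (n = 2 per group), circles and triangles the differences within replicate 1 and replicate 2, and the dotted line the median of all probe sets (0.07). The intervals of Cdkn2a, Cdkn2b and the first Cdkn1b probe set lie above 0, while the 2 Cdkn1a probe sets change sign between replicate numbers.

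The locus was then read gene by gene, with 1 probe set per gene, that with the highest mean. For this purpose the 6 measured genes on either side of the Cdkn2a and Cdkn2b pair were taken in the order of the RefSeq table, a choice made after the values were seen. Mtap, the methylthioadenosine phosphorylase gene next to Cdkn2a, read 9.04 and 8.49 in negative and 10.07 and 9.98 in positive arrays, 2.39-fold (log2 difference 1.26 ± 0.25 SE, n = 2 per group, limma adjusted p = 0.205). All of its 4 probe sets had both positive arrays above both negative arrays, with log2 differences of 1.15 to 1.62. On the other side, Dmrta1 lay near the floor (3.24 and 3.66 against 3.30 and 3.15).

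Of the 12 neighbours, 4 lay above without overlap and 0 below, beside 35.5% above and 14% below among all 18193 genes, and their median log2 difference was 0.22. The neighbours apart from Mtap had log2 differences of -0.22 to 0.33. Among them are 5 type I interferon genes, which resemble each other in sequence and may share signal, and Elavl2, Izumo3 and Zfp352, which read 3.45 to 4.46 in all 4 arrays. Klhl9, a ubiquitin ligase adaptor 7 measured genes from Cdkn2a beyond several of the interferon genes, read 8.99 and 8.49 against 9.59 and 9.39, and Ifnb1, the interferon beta gene further out, 4.27 and 4.21 against 4.66 and 4.52. The 1095 genes of chromosome 4 had a median log2 difference of 0.14, with 35.4% separated above, as over all genes (0.14 and 35.5%). Cdkn2c lies on the same chromosome, 114 measured genes away.

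**Figure D3:**
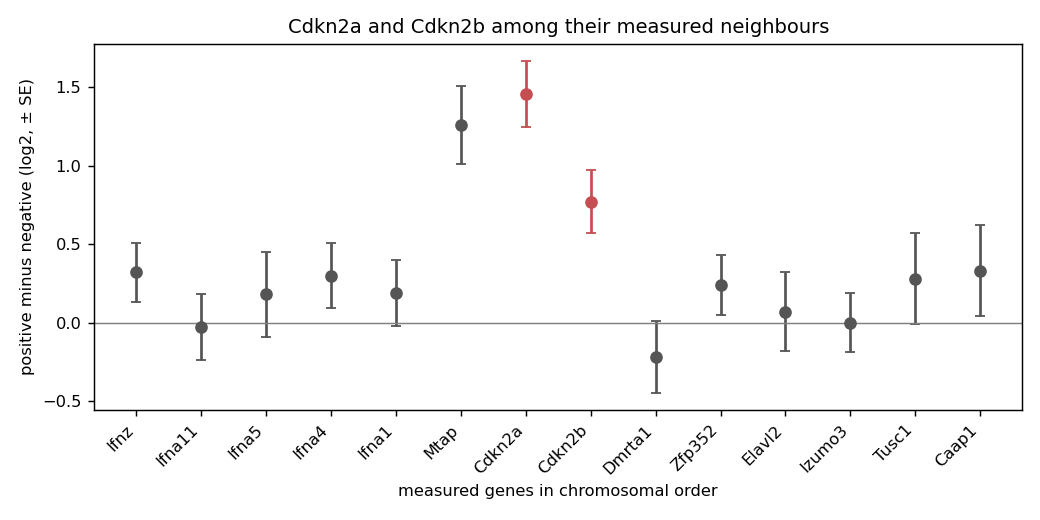
Log2 difference, positive minus negative, with its SE (limma, 1 probe set per gene, n = 2 per group) for Cdkn2a and Cdkn2b (red) and the 6 measured genes on either side (grey) in chromosomal order; distances are not to scale. Mtap (1.26), Cdkn2a (1.46) and Cdkn2b (0.77) adjoin each other, and the other neighbours lie between -0.22 and 0.33.

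The genes on which the inhibitors act were read from fixed lists with 1 probe set per gene, and none of their genes passed limma over all 18193 genes. With the replicate block at this level, a setting chosen after seeing the data, 0.0715% of genes were called higher and 0.868% lower. None of the 7 inhibitors was among them (Cdkn2a: adjusted p = 0.0807 in limma with the block, 0.18 without), and the same held for all list genes below except 3 of the suprabasal list. The kinases and cyclins had 8 of 12 measured genes separated above and 0 below, beside 35.5% and 14% of all genes, with a median log2 difference of 0.54, beside 0.14 over all genes. Cdk6, a direct partner of p16 and p15, read 8.83 and 8.90 against 9.42 and 9.63. Ccnd1, a D-type cyclin that competes with them for the kinase, read 10.45 and 10.13 against 11.30 and 11.77, 2.37-fold. The other D-type cyclins, Ccnd2 and Ccnd3, overlapped between the fractions, with log2 differences of 0.22 and 0.04. Cdk1, the mitotic kinase, was 2.44-fold higher, and Ccne2, a cyclin of the S phase entry that Cdk2 drives, was 2.02-fold higher at low intensity (4.28 and 4.62 against 5.22 and 5.70).

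Downstream, the retinoblastoma family and E2F list had 8 of 13 genes separated above and 1 below (35.5% and 14% of all genes), with a median of 0.33 (0.14 over all genes). E2f1, an activator of S phase genes, read 6.67 and 6.59 against 7.67 and 7.50. E2f7, a repressor of the same genes, read 6.35 and 6.15 against 7.20 and 7.92, and Rbl1, the p107 pocket protein, 6.24 and 6.41 against 7.15 and 7.54. Tfdp1, the partner with which E2F factors bind DNA, was 1.48-fold higher. All 18 genes of S phase and mitosis were separated above (35.5% of all genes), with a median of 0.68, so that a higher Cdkn2a reading stood beside higher readings of proliferation genes in the same arrays. Those with the smallest p were the mitotic kinases Aurka and Aurkb (2.58-fold and 2.20-fold) and the spindle checkpoint genes Bub1 and Bub1b (1.90-fold and 2.11-fold), with limma adjusted p of 0.183 to 0.21.

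Parts of the ubiquitin ligases that remove p27 and p21 had 8 of 12 genes separated above and 1 below (35.5% and 14% of all genes), with a median of 0.25. Ddb1, an adaptor of the ligase that removes p21 in S phase, read 10.08 and 10.09 against 10.60 and 10.63. Cks1b, the cofactor with which Skp2 binds p27, read 11.20 and 11.27 against 11.64 and 11.66. Cdc20, the mitotic ligase activator, and Rchy1, a ligase for p27 and p53, were 1.37-fold and 1.36-fold higher. Skp2 itself, Dtl and Rnf123 overlapped between the fractions, with log2 differences of -0.08, 0.08 and -0.07. Rbx1 was the gene below, at -0.25.

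On the Arf and p53 side, 5 of 13 measured genes were separated above and 2 below, with a median of 0.14. These counts are near the 35.5% and 14% of all genes, and the median equals that of all genes. Trp53, the p53 gene itself, and Bax were on the list but had no single-gene probe set. Ccng1, a p53 target, read 10.22 and 9.41 against 11.38 and 11.11, 2.69-fold. Zmat3, another p53 target, read 6.59 and 6.24 against 7.88 and 7.63, 2.53-fold, and Phlda3, a p53-induced inhibitor of Akt, was 1.64-fold higher. Mdm4, a partner of Mdm2 that inhibits p53, read 9.43 and 9.23 against 8.46 and 8.29 (log2 difference -0.95 ± 0.20 SE, limma adjusted p = 0.208). Eda2r, a death receptor gene and also a p53 target, was the other gene below, at 4.66 and 5.25 against 4.25 and 4.37. Cdkn1a, a target of the same factor with the p53 element printed above, overlapped between the fractions as described, and so did Mdm2 (10.61 and 11.28 against 10.06 and 10.92).

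Among regulators of the locus, 7 of 18 genes were separated above and 3 below, near the 35.5% and 14% of all genes, with a median of 0.25. Hmga2, a chromatin protein known in mouse neural stem cells to lower p16 and Arf, read 8.01 and 7.98 against 10.08 and 11.70, 7.43-fold. Bmi1, the Polycomb protein known for silencing Cdkn2a, read 7.28 and 6.66 against 7.97 and 7.69, 1.81-fold. Cbx8, another Polycomb protein, was 1.45-fold higher. The Polycomb genes Cbx7 and Suz12 were also separated above, with log2 differences of 0.25 and 0.38. Rnf2, Ezh2 and Eed, Polycomb genes too, overlapped between the fractions (0.31, 0.09 and 0.36). Dmtf1, an activator of Arf, read 8.40 and 8.55 against 7.82 and 8.15. Not every repressor on the list read higher. Id1, which restrains the activation of p16 by Ets factors, read 7.68 and 7.61 against 7.52 and 7.28, and Tbx3, which represses Arf, read 7.22 and 5.29 against 5.77 and 4.73. Tbx2, its relative, overlapped between groups with a log2 difference of -0.43.

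The list of TGF-beta, FOXO and MYC regulators had 5 of 16 genes separated above and 1 below, no more than the 35.5% and 14% of all genes, with a median of 0.07, below the 0.14 of all genes. Tgfb1, a growth factor known in human keratinocytes to induce p15, read 7.43 and 8.13 against 9.19 and 9.48, 2.93-fold (limma adjusted p = 0.197). Smad7, an inhibitor that TGF-beta signalling induces, was 1.90-fold higher. Foxo3, a factor known to induce p27, was 1.30-fold higher, and Foxm1, a mitotic transcription factor, 1.36-fold. Myc was the gene below, at 11.58 and 11.34 against 11.25 and 11.22, and 10 of the 16 genes overlapped between the fractions.

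Genes of suprabasal keratinocytes, in which cells leave the cycle, ran the other way, with 7 of 12 genes separated below and 2 above (14% and 35.5% of all genes) and a median of -1.78. With the replicate block and 1 probe set per gene, the setting chosen after seeing the data, Klk7, Flg and Calml3 were called lower. Their limma adjusted p was 0.0262, 0.039 and 0.042, and 0.868% of all genes were called lower. Without the block 0 were called, and the block over all probe sets called 0. Dsg1a, a desmosomal cadherin, read 7.89 and 8.52 against 5.92 and 3.95. The genes above were Ivl (8.36 and 8.16 against 8.74 and 8.60) and Krtdap, whose log2 difference was only 0.04. Lor, Sbsn and Tgm3 overlapped between the fractions.

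**Figure D4:**
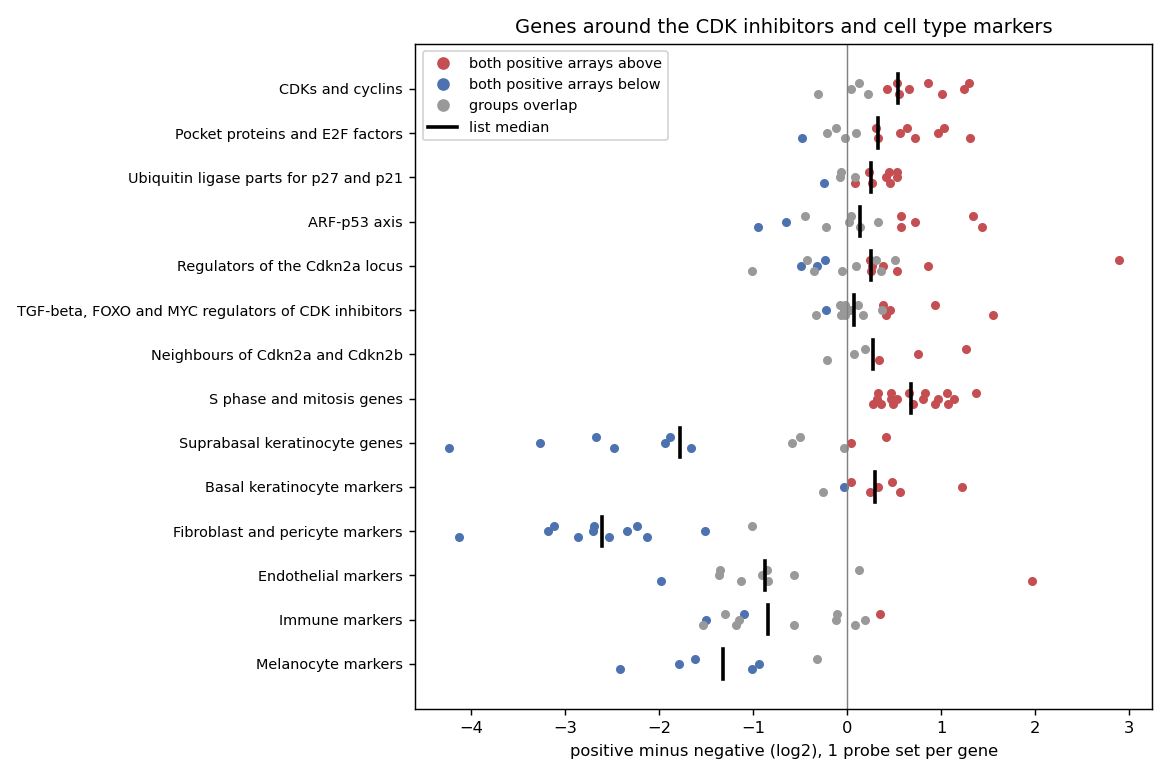
Log2 difference, positive minus negative, of the genes in each list (1 probe set per gene; each point is a gene and black bars are list medians), coloured by whether both positive arrays lay above (red) or below (blue) both negative arrays or the groups overlapped (grey). All 18 S phase and mitosis genes are red, the kinase and cyclin list has 8 red points of 12, and the fibroblast markers have 11 blue points of 12.

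For members that spanned at least 1 log2 unit over the arrays, the genes with the closest profile were sought among 16336 named genes, by the Euclidean distance between log2 values centred on each gene's mean over 4 arrays. Closest to Cdkn2a were Tradd, an adaptor of the tumour necrosis factor receptor (7.66 and 7.56 against 8.88 and 9.11), Fcna, a lectin (4.59 and 4.43 against 5.96 and 6.14), and Hint3, a nucleotide hydrolase (6.45 and 6.31 against 7.60 and 7.89), each at a distance of 0.10. Closest to Cdkn1c were Aoah, a lipopolysaccharide-degrading hydrolase, Lypd1, a membrane-anchored modulator of acetylcholine receptors, and Nkx2-5, a homeobox factor of the heart, at 0.08 to 0.10. With 4 arrays such likeness is a description of 4 values and no measure of a relation.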

How the data were processed

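RNA from 4 sorted samples was amplified, labelled and hybridised to Affymetrix whole-genome mouse arrays, per the labels' protocols. The authors deposited 1 table of log2 values (2.73 to 14.36, the scale being read from the values) with 45101 rows. The submitters' processing notes name R 2.14.0. How background, normalization and summary were handled is not stated there. Leaving out 64 control probe sets gave 45037, of which 34945 had 1 gene symbol in the platform annotation, 932 several and 9160 none.

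Differences were fitted on all probe sets with limma 3.58.1 (R 4.3.3), group as the only term, 2 residual degrees of freedom plus a prior of 2.56, and Benjamini-Hochberg adjustment over all probe sets at 0.05. The fit was tested on simulated data. Genes outside the members were read from a separate fit of the same form on the brightest probe set of each of 18193 genes, with adjustment over these genes. Named genes were all members, the 4 with the smallest p of each list of related genes (markers are given by list), the sort markers and the closest profiles, plus a few further list genes and the locus neighbours chosen after their values were seen. Members and lists were chosen with earlier results of these data known. Of the lists, 3 genes (Trp53, Bax and Ccnb1) matched no single-gene probe set and are not analysed here.

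The series text states that both fractions came from the same number of tumours, without saying that a replicate number marks a tumour. Differences between replicates 1 and 2 correlated between the fractions with r = 0.183 across probe sets (0.24 in the brighter ones), which are not independent replicates. With fewer than 3 pairs the numbers were not taken as pairs in the main test, and the block was an alternative. Others were scalings, a filter on dim probe sets, priors, probe set summaries and leaving out each array. Precision is limited by the number of arrays.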

Additional observations from a re-analysis of the deposited data

How the results depend on the processing

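With the replicate number as a block, 0 probe sets and 0 members were called. With the block and 1 probe set per gene, an alternative chosen after seeing the data, 13 genes were higher and 158 lower, and 0 were members. The block changed no other call. Spike-in scaling called 26711 probe sets higher and 315 lower, 6 members higher and 0 lower. It put 9 members and 36058 probe sets above without overlap, and 0 members and 919 probe sets below. Under it the second Cdkn1a probe set read 0.64, the second Cdkn1b probe set 0.66 and Cdkn2d 0.76. Equal medians left 0 members and 6381 probe sets below without overlap and put 4 members and 16993 probe sets above; quantile normalization put 4 and 13396 above. Cdkn2d turned to 0.015 after quantile normalization (0.015 with the block too) and to 0.052 with equal medians. Leaving out each array in turn gave -0.035 to 0.48 and -0.35 to 0.041 for the Cdkn1a probe sets, -0.095 to 0.19 for Cdkn2c and -0.37 to 0.31 for Cdkn2d, changing sign in each. Cdkn2a stayed between 1.33 and 1.59 and Cdkn2b between 0.63 and 0.90, and Cdkn1c ran from 0.23 to 0.93. The lowest adjusted p of any member apart from spike-in scaling was 0.0807, for Cdkn2a in limma with the block and 1 probe set per gene, and its highest was 0.575. The filter on dim probe sets removed Cdkn2a, so it has no value there. Trended and robust priors and the 0.1 threshold left all 9 members uncalled. The cause of these shifts was not tested, apart from the constant that spike-in scaling adds.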

Other observations

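Outside both inhibitor families, 3 further genes carry a CDK inhibitor in their name and were read after the members' values were known. Cdkn2aipnl, a paralogue of the gene for an Arf-binding protein, read 7.86 and 8.19 in negative and 9.41 and 9.14 in positive arrays, a log2 difference of 1.25 ± 0.23 (SE, n = 2 per group, limma adjusted p = 0.187). The Arf-binding protein's own gene, Cdkn2aip, read 4.95 and 5.86 against 5.14 and 5.97, with replicate 2 higher in both fractions. Cdkn3, a phosphatase of CDKs, read 7.17 and 7.12 against 7.39 and 7.35.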
